A study of Arabidopsis thaliana with 12 samples.

Results

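The comparison described here is the response of wild-type (WT) Arabidopsis thaliana seedlings to drying, measured as polyA RNA in 6 of the 12 libraries of the series: 3 libraries labelled WT dehydrated and 3 labelled WT control. All seedlings were grown upright on plates of diluted Murashige and Skoog medium for 10 days. WT dehydrated seedlings of similar size were then left to dry on a petri dish for 6 h, and WT control seedlings carry no treatment in the labels. The other 6 libraries come from the cost1 mutant under the same conditions; they enter the filter on low counts, the scaling and the estimate of the spread, and a closing comparison of the drying response between genotypes. No label says whether the 3 libraries of a group come from separate plates or days, nor at what hour the controls were taken, so p-values measure the spread between libraries, which may be technical, and time of day cannot be told apart from drying. Of the genes in the tables, 18809 passed the filter on low counts and were tested, and 69 lists of gene families, pathways and tissue markers were used to describe them, with 1718 tested loci of 2247 listed loci.

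Plants losing water accumulate abscisic acid (ABA), whose receptors block a class of phosphatases and so free kinases that activate bZIP transcription factors at promoter elements with the core ACGTG. Drying also acts through DREB factors, which bind the dehydration-responsive element, and through calcium, MAP kinase, jasmonate and ethylene signals shared with the responses to wounding and pathogens. Growth, which needs new walls, ribosomes and cell divisions, slows while osmolytes, detoxifying enzymes and protective lipids are made.

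Drying moved a large part of the transcriptome in both directions. Of 18809 genes, 8549 (45.5%) were called, 4680 higher in WT dehydrated seedlings (24.9%) and 3869 lower (20.6%), by edgeR's quasi-likelihood test, with a Benjamini-Hochberg adjusted p under 0.05. At least 2-fold changes were called in 2946 genes that rose (15.7%) and 1517 that fell (8.07%), and at least 16-fold changes in 483 that rose and 60 that fell. Higher genes made up 54.7% of the calls with TMM scaling but 42.8% when libraries were scaled by their totals alone, which put the median log2 change of all genes at -0.164 in place of -0.018. The groups did not overlap in 11423 genes (60.7%). The genes that rose at least 2-fold held 23.5, 25.6 and 28.2% of all counts in the WT dehydrated libraries, against 6.42, 6.43 and 6.58% in the WT control libraries. Those that fell at least 2-fold held 2.47, 2.04 and 1.9% of the counts in WT dehydrated, against 7.72, 8.02 and 7.64% in WT control. Both sets were chosen on these libraries, so these shares describe the size of the shift and test nothing.

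The WT dehydrated libraries also differed more among themselves. The median standard deviation of log2 CPM over the 3 libraries was 0.226 in WT dehydrated and 0.136 in WT control, and for the genes that fell at least 2-fold it was 0.377 and 0.148. Depth was alike, at 6099415 to 6185108 expected counts per library in WT dehydrated and 5968852 to 6198222 in WT control. FPKM values below are the authors' own and log2 changes are the edgeR estimates with their standard error (SE). They are on different scalings, so a ratio of FPKM values comes out somewhat lower than the fitted fold change. Some genes have deposited counts that are not whole numbers, and no source used here states how reads common to similar or overlapping genes were counted; these genes are named as having fractional counts, and their values are uncertain.

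The libraries were checked against tissue markers. All 8 leaf photosynthetic markers were detected in every library, with a summed level of 20310 to 27420 FPKM in WT dehydrated and 32000 to 38020 FPKM in WT control; 1 of the 8 was called lower and none higher. WT dehydrated 3 stood apart from the other WT dehydrated libraries in some light-harvesting and clock genes. CAB2 had 1486, 2292 and 324.8 FPKM in WT dehydrated, against 1958, 1316 and 1458 FPKM in WT control, and LHCA1 had 1369, 1619 and 404.5 FPKM in WT dehydrated, against 2212, 1696 and 1672 FPKM in WT control. The clock gene PRR9 had 6.01, 9.71 and 0.36 FPKM in WT dehydrated, against 2, 2.05 and 1.52 FPKM in WT control, and PRR7 had 9.07, 14.65 and 2.34 FPKM in WT dehydrated, against 19.86, 20.79 and 15.35 FPKM in WT control. None of these 4 genes was called, and without WT dehydrated 3 the count of called genes was 7118 in place of 8549. That drop is not particular to this library, as leaving out any other WT library gave 6766 to 7808. In whole-tissue RNA, fewer cells of a type and less RNA per cell cannot be told apart. Although the label is seedling, several defining root genes were at or near 0: the root hair factor RHD6 was listed at 0 in all 6 libraries, and the root auxin exporter EIR1 (PIN2) had 0.06, 0.06 and 0.06 FPKM in WT dehydrated and 0.29, 0.06 and 0.24 FPKM in WT control. The 15 root markers summed to 34.89 to 36.4 FPKM in WT dehydrated and 43.17 to 45.13 FPKM in WT control, with 2 of 7 tested called higher and 3 lower. The radial patterning genes SCR, at 12.09, 6.48 and 9.86 FPKM in WT dehydrated against 17.24, 14.88 and 20.21 FPKM in WT control, and SHR were detected in every library and fell, as did the phosphate exporter PHO1. The stem cell gene WOX5 had 1.4, 8.35 and 5.01 FPKM in WT dehydrated, against 0.31, 0.31 and 0.16 FPKM in WT control. The aquaporin TIP2;3 had 1.81, 5.37 and 3.65 FPKM in WT dehydrated, against 0.14, 0 and 0.14 FPKM in WT control. WOX5 and TIP2;3 were the 2 root markers called higher. Both were so near 0 in WT control that a call lower was hardly possible for them. ALF4, of lateral root formation, was detected in every library at 6.71 to 8.72 FPKM and was not called. The 9 guard cell markers summed to 1028 to 1054 FPKM in WT dehydrated and 1072 to 1267 FPKM in WT control, with 2 called higher and 4 lower. Seed markers summed to 3.01 to 7.17 FPKM in WT dehydrated and 1.51 to 3.84 FPKM in WT control, with the storage protein genes CRU2 and SESA3 at 0 in all 6 libraries, and 2 of 3 tested called higher. Those 2, GEA6 and EM1, had 0 to 0.22 FPKM in WT control, so a call lower was hardly possible for them. The other tested member, CRA1, had 0.88, 0.1 and 0.99 FPKM in WT dehydrated. It had 1.28, 2.45 and 2.55 FPKM in WT control and was not called. Pollen markers summed to 32.74 to 42.39 FPKM in WT dehydrated and 22.28 to 24.93 FPKM in WT control, most of it from the tubulin TUA1, and 3 of 4 tested were called higher. Of these, MYB97 and MYB120 were at 0 FPKM in every WT control library and could not have been called lower. The part of changing cell makeup in the results below was not tested.

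Core clock genes bear on the unknown harvest hour. Of 21 tested, 2 were called higher and 3 lower, and their summed level was 700.6 to 1054 FPKM in WT dehydrated and 1764 to 2225 FPKM in WT control, with GRP7 the largest part in every library. The list median log2 change was 0.11 and changed sign under 4 of 21 alternatives. The lower sum thus does not stand for a fall of most members. GRP7, a clock-controlled RNA-binding protein with fractional counts, had 413.7, 467.2 and 353.9 FPKM in WT dehydrated, against 1220, 1709 and 1262 FPKM in WT control. Its log2 change was -1.62 (SE 0.60, adjusted p = 0.043), and the call was lost under 9 of 21 alternatives. TCP11 (CHE), a repressor of the clock gene CCA1, had 6.59, 4.94 and 3.27 FPKM in WT dehydrated, against 31.47, 34.29 and 26.67 FPKM in WT control (-2.50, SE 0.40, adjusted p = 0.00039). BOA, a homologue of the evening factor LUX, rose by 1.18 (SE 0.21, adjusted p = 0.0007), and both calls held under all 21 alternatives. PRR3 fell by 1.21, a call lost under 7 of 21, and ZTL rose by 0.47. The part of time of day in the results was not tested.

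**Figure D1:**
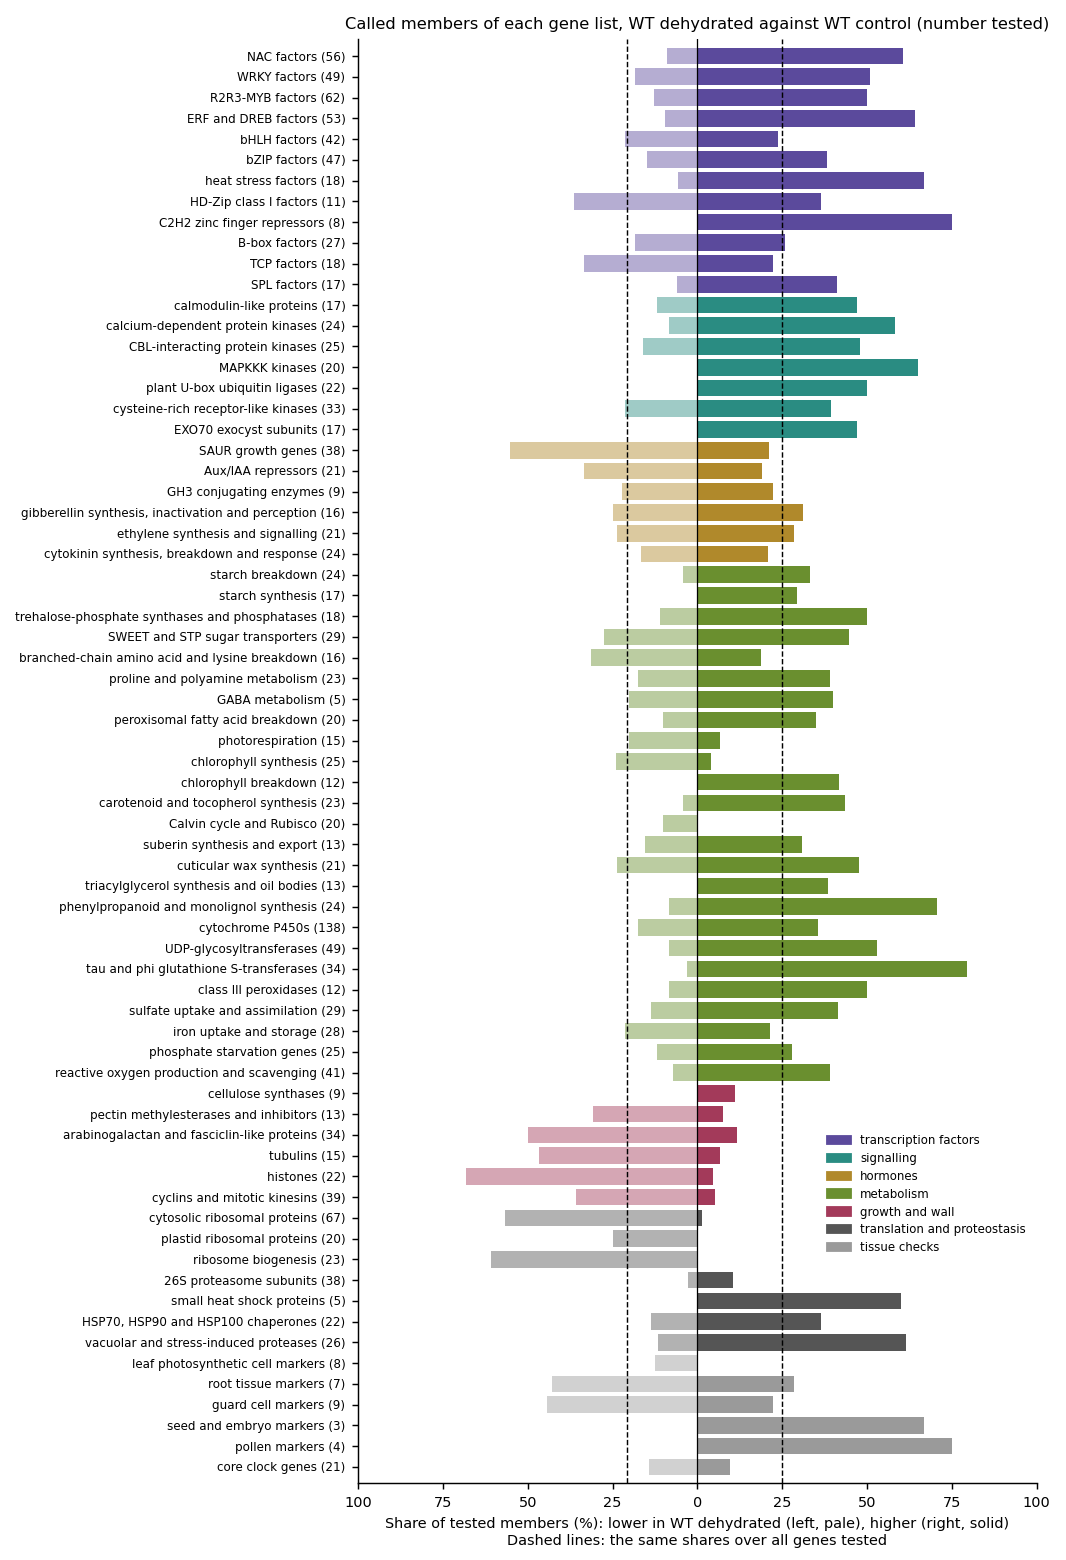
Share of tested members called higher (right, solid) and lower (left, pale) in WT dehydrated against WT control for the 69 gene lists, with the number tested in brackets; dashed lines give 24.9% higher and 20.6% lower over all genes. Glutathione S-transferases (79.4%), C2H2 repressors (75.0%), heat stress factors (66.7%), MAPKKK kinases (65.0%) and ERF and DREB factors (64.2%) reach far past the right line, and histones (68.2%), ribosome biogenesis (60.9%) and SAUR genes (55.3%) past the left one, while bHLH and TCP factors stop short of the right line.

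Below are 6 promoters, printed because they carry the motifs counted below: in the first 5, motifs whose shares differed between rising and falling genes, and in SAUR63 one frequent in its own family; they were chosen after values and matches were seen. Each is the 250 bases before the annotated start in the RefSeq TAIR10.1 assembly, 5′ to 3′ on the gene's strand, with the matched motif in capitals on whichever strand it lies; overlapping matches run together. AFP3 (AT3G29575, chr3:11384146-11384395, minus strand), which encodes a protein that binds the ABA factor ABI5, and PUB19 (AT1G60190, chr1:22198016-22198265, plus strand), a U-box ubiquitin ligase, show the ACGT-core elements ACGTGT and ACGTGG.
AFP3: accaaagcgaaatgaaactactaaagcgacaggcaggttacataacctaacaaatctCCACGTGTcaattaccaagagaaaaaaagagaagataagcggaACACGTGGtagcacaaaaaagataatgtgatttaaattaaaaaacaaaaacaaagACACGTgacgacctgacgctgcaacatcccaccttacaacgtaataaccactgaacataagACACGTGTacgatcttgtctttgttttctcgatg
PUB19: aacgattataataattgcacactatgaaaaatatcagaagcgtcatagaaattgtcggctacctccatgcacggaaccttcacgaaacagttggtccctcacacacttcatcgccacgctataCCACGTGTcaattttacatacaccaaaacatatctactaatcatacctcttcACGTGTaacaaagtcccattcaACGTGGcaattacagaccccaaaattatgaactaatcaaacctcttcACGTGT
RD29A (LTI78, AT5G52310, chr5:21240467-21240716, plus strand), the classical desiccation reporter gene, shows 3 copies of the dehydration-responsive element core ACCGAC.
RD29A: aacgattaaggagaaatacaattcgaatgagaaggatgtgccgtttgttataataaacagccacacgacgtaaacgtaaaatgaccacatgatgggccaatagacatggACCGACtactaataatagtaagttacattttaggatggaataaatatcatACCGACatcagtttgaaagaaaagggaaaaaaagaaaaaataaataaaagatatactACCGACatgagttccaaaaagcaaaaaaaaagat
NOP56 (AT1G56110, chr1:20986953-20987202, minus strand), a core protein of the particles that modify ribosomal RNA, and the ribosomal protein gene AT2G37600 (chr2:15775375-15775624, minus strand) show the telo-box AAACCCTA and the site II element TGGGCC, both common in genes of the translation machinery.
NOP56: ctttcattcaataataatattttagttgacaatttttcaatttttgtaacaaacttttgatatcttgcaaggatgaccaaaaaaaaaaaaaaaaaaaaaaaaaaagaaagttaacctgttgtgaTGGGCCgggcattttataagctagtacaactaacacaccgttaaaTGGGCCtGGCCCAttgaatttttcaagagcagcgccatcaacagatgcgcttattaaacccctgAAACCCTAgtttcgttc
AT2G37600: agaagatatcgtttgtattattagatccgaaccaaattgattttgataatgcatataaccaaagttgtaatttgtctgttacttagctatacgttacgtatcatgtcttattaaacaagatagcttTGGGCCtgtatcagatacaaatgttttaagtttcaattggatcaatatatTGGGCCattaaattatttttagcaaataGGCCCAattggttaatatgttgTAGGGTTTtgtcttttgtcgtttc
SAUR63 (AT1G29440, chr1:10305109-10305358, minus strand), a small auxin-induced growth gene with fractional counts, shows 2 copies of CATGTG.
SAUR63: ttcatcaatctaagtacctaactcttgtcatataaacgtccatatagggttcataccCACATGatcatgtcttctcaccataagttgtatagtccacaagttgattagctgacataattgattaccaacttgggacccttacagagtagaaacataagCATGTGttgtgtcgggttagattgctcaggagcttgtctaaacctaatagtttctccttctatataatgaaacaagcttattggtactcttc

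Across all genes, the motifs were counted on both strands from 250 bases before to 50 after the start, in 18763 tested genes with a window. ACGTGT or ACGTGG was present in 39.1% of promoters of genes that rose at least 16-fold and in 32.4% of those that rose at least 2-fold, against 15% of those that fell at least 2-fold and 20.7% of all. Windows with 2 or more such matches were 19.9% of the genes that rose at least 16-fold, 14.9% of those that rose at least 2-fold, 3.16% of those that fell and 7.58% of all. The G-box CACGTG, which can overlap these, followed the same order at 20.9, 15.8, 5.01 and 9.11%. The ACGT cores thus became more frequent with the size of the rise.

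The dehydration-responsive core (ACCGAC or GCCGAC) was found in 15.9% of the genes that rose at least 16-fold, 13.9% of those that rose at least 2-fold, 6% of those that fell at least 2-fold and 9.9% of all. The W-box of WRKY factors (TTGACC or TTGACT) stood at 44.7, 41.1, 29.6 and 32.5% in the same sets, and the heat shock core GAANNTTC at 18.6, 15, 9.69 and 11.5%. The GCC-box GCCGCC (3.93, 2.72, 2.24 and 2.68%) and the evening element AAAATATCT of clock-controlled genes (3.93, 3.77, 3.23 and 3.04%) differed little between the sets. TATAAA was in 56.3, 53.6, 53.8 and 50.9%.

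The site II element and the telo-box ran the other way. Site II (TGGGCC or TGGGCT) was in 12% of promoters of genes that rose at least 16-fold, 16.3% of those that rose at least 2-fold, 19.3% of those that fell at least 2-fold and 25.8% of all, and the telo-box in 2.48, 2.07, 7.45 and 5.47%. Over called-lower genes of any size the site II share was 28.6%, above that of all genes, and the lower share above thus holds for the larger falls. Among cytosolic ribosomal protein genes, 77.6% held a site II match and 46.3% a telo-box. CATGTG was in 44.7% of SAUR promoters, against 14.5% of all genes that rose at least 2-fold, 16.7% of those that fell at least 2-fold and 12.7% of all genes tested. With called genes of any size its order turned, to 13.8% of the higher and 13.1% of the lower ones. A match is a description of these letters and not of factor binding.

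**Figure D2:**
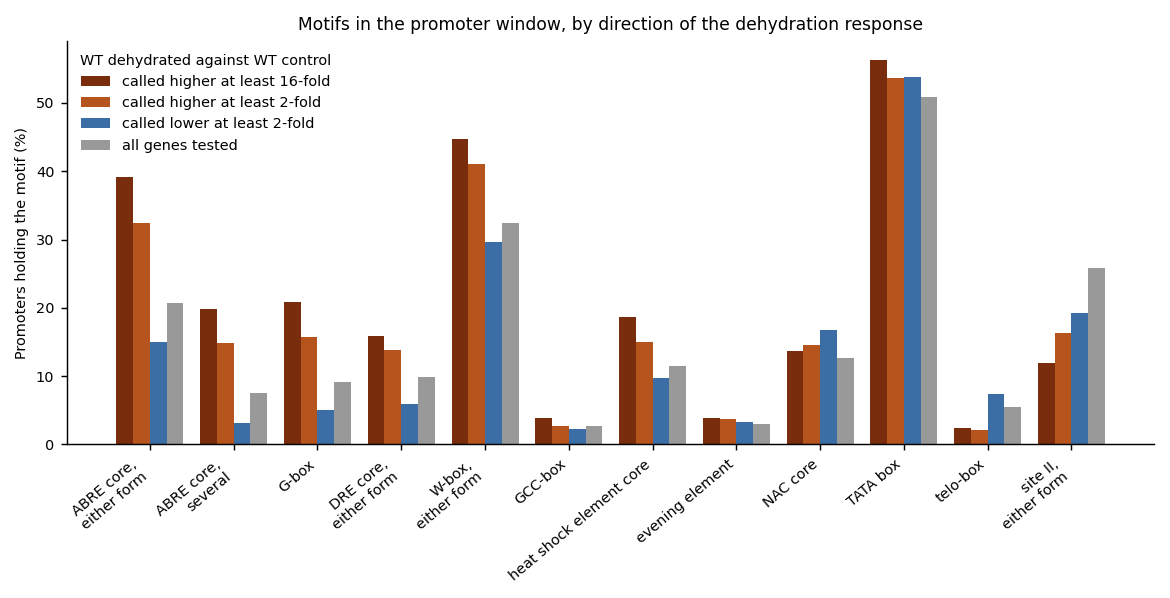
Share of promoter windows (%) that hold each named motif, for genes called at least 16-fold higher, at least 2-fold higher and at least 2-fold lower in WT dehydrated, and for all genes tested. ABRE core stands for ACGTGT or ACGTGG and DRE for the dehydration-responsive element; the ABRE core bars descend from 39.1% to 15% across the 3 called sets, with 20.7% for all genes.

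Gene structure also differed between the sets. Single-exon genes were 32.9% of those that rose at least 16-fold, 23.5% of those that rose at least 2-fold, 27.6% of those that fell at least 2-fold, 13% of those not called and 15.1% of all. The median exon number was 2, 3, 3, 5 and 5 in the same sets. By exon number, 24.4% of 2841 single-exon genes rose and 14.7% fell at least 2-fold, whereas 8.67% of 3055 genes with 11 or more exons rose and 4.32% fell. The classes also differ in level, with a median of 9.07 CPM for single-exon genes and 35.7 CPM for genes with 11 or more exons, and the part of the level was not tested.

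**Figure D3:**
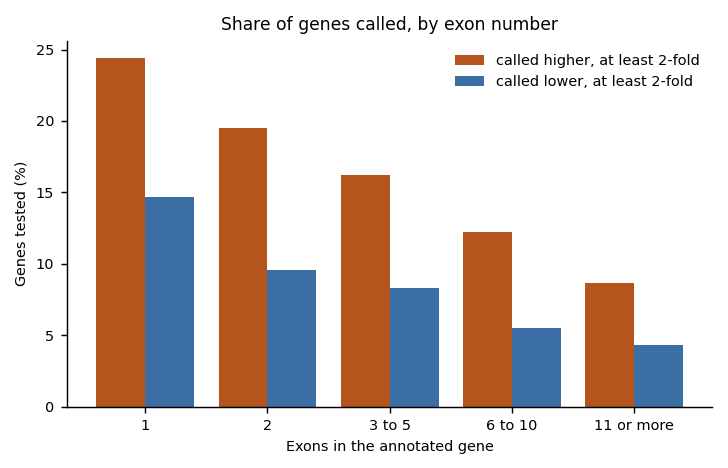
Share of tested genes (%) called at least 2-fold higher or lower in WT dehydrated, by number of exons in the TAIR10.1 annotation. Both bars descend with exon number, from 24.4% and 14.7% for single-exon genes to 8.67% and 4.32% for genes with 11 or more exons.

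Most stress-linked transcription factor families rose. The ERF and DREB factors, which bind GCC-boxes and dehydration-responsive elements, had 34 of 53 tested members called higher and 5 lower, with a median log2 change of 1.76 against -0.02 for all genes. Over the 21 alternatives, the count called higher ran from 22 to 36 and the median from 1.12 to 1.82. RAP2.6, an ABA- and stress-induced ERF, had 124.3, 243.4 and 249.3 FPKM in WT dehydrated, against 0.31, 0.16 and 0.97 FPKM in WT control (log2 change 8.85, SE 0.82, adjusted p = 7.5e-06). ERF53, a drought-induced factor, had 59.4, 180.2 and 123 FPKM in WT dehydrated, against 0.12, 0.36 and 0.25 FPKM in WT control (9.01, SE 0.62, adjusted p = 9.2e-07). Both were near the detection limit in every control library, so a call lower was hardly possible for them, and among the more abundant factors of the family after drying. The repressors ERF4 and ERF8 rose by 2.66 and 3.02 on the log2 scale. EBP, the member with the highest mean level, moved the other way, with 140.4, 121.1 and 95.58 FPKM in WT dehydrated against 280.2, 366.8 and 296.9 FPKM in WT control (-1.26, SE 0.44, adjusted p = 0.035), a call lost under 6 of 21 alternatives.

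The zinc finger repressors of the C2H2 class, which restrain defence and growth genes under stress, mostly rose, with 6 of 8 called higher, none lower and a median of 3.83. ZAT6 had 75.78, 94.48 and 91.64 FPKM in WT dehydrated, against 3, 4.22 and 3.22 FPKM in WT control (4.79, SE 0.21, adjusted p = 1.1e-07). STZ (ZAT10), ZF2 (AZF2) and RHL41 (ZAT12) rose by 3.84, 3.82 and 4.43 on the log2 scale. In the list of heat stress factors 12 of 18 were called higher and 1 lower, and HSFA6B, an ABA-responsive member, had 32.38, 29.61 and 31.38 FPKM in WT dehydrated against 0.62, 1.02 and 1.59 FPKM in WT control (4.99, SE 0.39, adjusted p = 2.2e-06).

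NAC factors, which drive stress and senescence programmes, had 34 of 56 called higher and 5 lower, with a median of 1.06. NAC032 had 160.7, 217.7 and 189.5 FPKM in WT dehydrated, against 4.96, 7.99 and 7.05 FPKM in WT control (4.97, SE 0.38, adjusted p = 1.7e-06). ATAF1, the most abundant member, had 208.3, 529.5 and 236.3 FPKM in WT dehydrated against 29.72, 31.36 and 33.77 FPKM in WT control (3.50, SE 0.35), and dehydrated library 2 stood well above the others. NAC053, which activates proteasome genes, was even across libraries at 29.78, 29.07 and 29.32 FPKM in WT dehydrated and 6.66, 6.35 and 6.62 FPKM in WT control (2.30, SE 0.12, adjusted p = 2.5e-07).

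R2R3-MYB factors had 31 of 62 called higher and 8 lower (median 0.88), and WRKY factors 25 of 49 higher and 9 lower (median 0.87). MYB74, an osmotic-stress factor, had 66.69, 53.86 and 73.02 FPKM in WT dehydrated, against 0.12, 0.74 and 0.38 FPKM in WT control (7.37, SE 0.51, adjusted p = 9.6e-07). MYB96, a regulator of wax synthesis with fractional counts, rose by 2.83 on the log2 scale. WRKY33, the activator of camalexin synthesis, had 158.6, 137 and 212.1 FPKM in WT dehydrated, against 14.01, 11.31 and 13.95 FPKM in WT control (3.84, SE 0.27, adjusted p = 1.1e-06). WRKY48 and WRKY28 rose by 3.31 and 4.29 on the log2 scale.

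Other factor families were split. Of the HD-Zip class I factors 4 of 11 were called higher and 4 lower, with HB6 at 269.9, 262.5 and 249.3 FPKM in WT dehydrated against 67.76, 80.15 and 69.15 FPKM in WT control (2.00, SE 0.12, adjusted p = 3.9e-07). ATHB13 had 4.09, 2.28 and 2.78 FPKM in WT dehydrated, against 16.24, 14.49 and 17.38 FPKM in WT control (-2.24, SE 0.21, adjusted p = 7.5e-06). The bHLH list had 10 of 42 called higher and 9 lower (median -0.25), shares near those of all genes. Its growth-linked members BEE2, a brassinosteroid-induced factor, and PIL5 (PIF1), a light-regulated repressor of germination, fell by 2.25 and 2.08 on the log2 scale, whereas the jasmonate factor MYC2 rose by 2.73.

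bZIP factors had 18 of 47 called higher and 7 lower; the median of 0.18 was below 0 with limma on FPKM. GBF3, a G-box binding member, had 77.57, 71.7 and 65.84 FPKM in WT dehydrated, against 4.35, 3.89 and 5.4 FPKM in WT control (4.12, SE 0.41, adjusted p = 1.1e-05). Of B-box factors 7 of 27 were called higher and 5 lower, with BBX31 higher by 6.25 and BBX14 lower by 1.83 on the log2 scale. The B-box shares, 25.9% and 18.5%, were near the 24.9% and 20.6% over all genes. Their median of 0.10 changed sign under 8 of 21 alternatives. Among TCP factors 4 of 18 were called higher and 6 lower (median -0.41). SPL factors had 7 of 17 higher and 1 lower with TMM, but 4 and 4 when scaled by totals alone; the copper regulator SPL7 rose by 0.80 on the log2 scale.

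**Figure D4:**
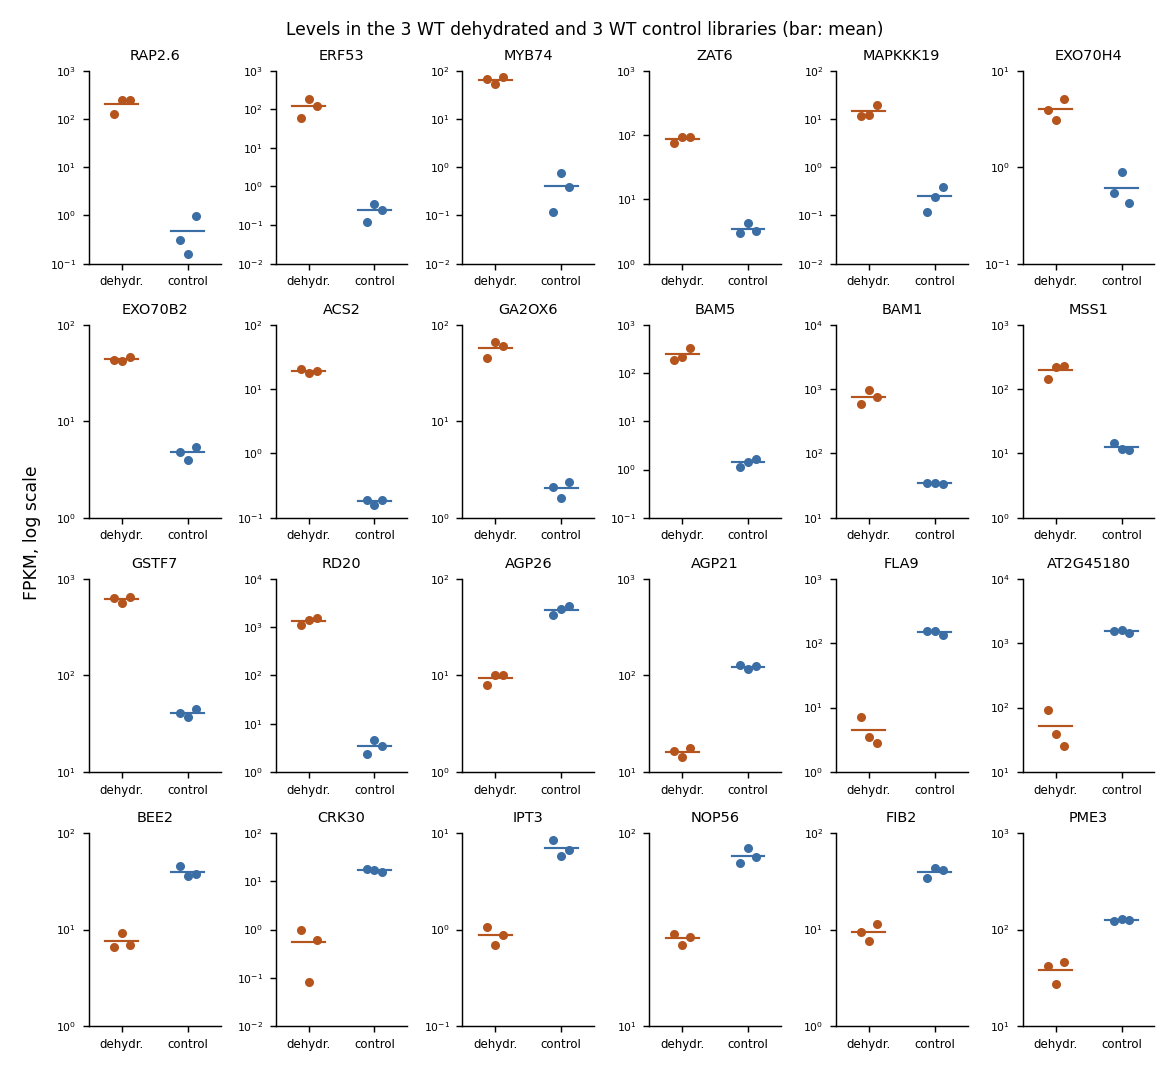
FPKM on a log scale in each of the 3 WT dehydrated (left) and 3 WT control (right) libraries for 24 genes of the lists, with the mean as a bar. No panel overlaps between groups; genes such as ERF53 and MAPKKK19 sit under 1 FPKM in all controls, and FLA9 and AT2G45180 are more widely spread among the dehydrated libraries than among the controls.

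Signalling families rose more often than they fell. MAPKKK kinases, at the top of MAP kinase cascades, had 13 of 20 called higher and none lower (median 0.62). MAPKKK18, an ABA-induced kinase, had 82.16, 92 and 85.7 FPKM in WT dehydrated, against 0.12, 0.48 and 0.13 FPKM in WT control (8.52, SE 0.63, adjusted p = 1.5e-06). MAPKKK19 had 11.54, 12.31 and 18.97 FPKM in WT dehydrated, against 0.12, 0.24 and 0.38 FPKM in WT control (5.92, SE 0.50). MAPKKK13 and MAPKKK15 rose by 3.11 and 2.98, and the most abundant member that was not called, MAP3KA, stood at 0.53 (adjusted p = 0.069).

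Calcium decoders were also called higher more often than lower. Calcium-dependent protein kinases had 14 of 24 called higher and 2 lower (median 0.64), with CDPK1 (CPK10) higher by 1.72 and CPK9 by 1.42 on the log2 scale. CBL-interacting kinases had 12 of 25 higher and 4 lower (median 0.81), and SIP4 (CIPK11) had 48.59, 68.78 and 65.21 FPKM in WT dehydrated, against 4.01, 5.28 and 4.58 FPKM in WT control (3.86, SE 0.28, adjusted p = 1.4e-06). Calmodulin-like proteins had 8 of 17 higher and 2 lower, led in level by the touch-induced TCH3 at 537, 463 and 517.1 FPKM in WT dehydrated against 106.9, 88.88 and 131.5 FPKM in WT control (2.36, SE 0.30, adjusted p = 6.9e-05).

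Plant U-box ubiquitin ligases had 11 of 22 called higher and none lower. PUB23 and PUB24, which dampen immune signalling, rose by 4.08 and 4.72 on the log2 scale. PUB24 had 42.94, 29.74 and 56.72 FPKM in WT dehydrated, against 1.9, 1.65 and 1.84 FPKM in WT control. Among EXO70 subunits of the exocyst, which tethers secretory vesicles, 8 of 17 were called higher and none lower, and EXO70B2, linked to immunity, had 42.72, 42.59 and 46.45 FPKM in WT dehydrated against 4.81, 4.01 and 5.47 FPKM in WT control (3.35, SE 0.19, adjusted p = 2.9e-07). Cysteine-rich receptor-like kinases had 13 of 33 higher and 7 lower. ARCK1, a negative regulator of ABA and osmotic stress signalling, rose by 3.83 and CRK30 fell by 4.75 on the log2 scale; CRK30 had 0.99, 0.08 and 0.62 FPKM in WT dehydrated, against 17.72, 16.91 and 15.98 FPKM in WT control.

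Hormone lists were mixed, with the auxin growth genes the main fallers. SAUR genes, which promote cell expansion, had 8 of 38 called higher and 21 lower, with a median of -1.68; 38 of 77 annotated members were tested. AT1G72430, the most abundant, had 4.19, 3.15 and 1.77 FPKM in WT dehydrated, against 67.97, 70.86 and 69.93 FPKM in WT control (-4.37, SE 0.53, adjusted p = 5.6e-05). SAUR63 was at 0, 0 and 0.36 FPKM in WT dehydrated and at 15.65, 13.76 and 18.65 FPKM in WT control, and the control to dehydrated ratio of its few counts was 154 with a 95% counting interval of 27.34 to 6134. Aux/IAA repressors had 4 of 21 higher and 7 lower (median -0.25), with IAA7, which has fractional counts, lower by 1.12 on the log2 scale.

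Ethylene synthesis and signalling had 6 of 21 called higher and 5 lower (28.6% and 23.8%, near the 24.9% and 20.6% over all genes). Among its ACC synthases, which make the ethylene precursor, 5 were tested, and ACS2 and ACS6 were called higher, ACS10 and ACS11 lower (-0.70 and -1.91) and ACS7 not called. ACS2 had 20.54, 17.67 and 19.38 FPKM in WT dehydrated, against 0.19, 0.16 and 0.19 FPKM in WT control (6.92, SE 0.44, adjusted p = 5.9e-07). ACS6 rose by 3.48 and the ACC oxidase EFE (ACO4) by 1.24 on the log2 scale. Of gibberellin genes 5 of 16 were called higher and 4 lower. GA2OX6, which inactivates gibberellin, had 45.73, 67.03 and 59.64 FPKM in WT dehydrated, against 2.07, 1.6 and 2.37 FPKM in WT control (4.98, SE 0.23, adjusted p = 1.3e-07). The receptor GID1B rose by 2.88 and the DELLA repressor GAI fell by 1.47 on the log2 scale. DELLA genes moved both ways, as RGA1 was called lower (-0.97 to -0.52 over all fits) and RGL3 higher (1.41 to 2.26). The RGA1 and RGL3 calls held under all 21 alternatives.

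Cytokinin genes had 5 of 24 higher and 4 lower (20.8% and 16.7%), both below the 24.9% and 20.6% over all genes. IPT3, which starts cytokinin synthesis, had 1.07, 0.69 and 0.88 FPKM in WT dehydrated, against 8.46, 5.8 and 6.72 FPKM in WT control (-2.83, SE 0.28, adjusted p = 1.3e-05), while LOG5, an activating enzyme, rose by 3.51. GH3 conjugating enzymes had 2 of 9 higher and 2 lower (22.2% each, near the shares over all genes), with JAR1, which makes the active jasmonate conjugate, higher by 2.01 on the log2 scale. The medians of the ethylene (0.04), gibberellin (0.18), GH3 (0.10) and cytokinin (-0.04) lists each changed sign under at least 1 of 21 alternatives.

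In carbon metabolism, 2 β-amylases stood out. Starch breakdown genes had 8 of 24 called higher and 1 lower, with a median of only 0.28. BAM1, the stress-induced plastid β-amylase, had 596.5, 963 and 743 FPKM in WT dehydrated, against 35.32, 34.63 and 33.45 FPKM in WT control (4.62, SE 0.34, adjusted p = 1.5e-06). BAM5, a β-amylase outside the plastid, had 185, 210.7 and 338.1 FPKM in WT dehydrated, against 1.11, 1.44 and 1.69 FPKM in WT control (7.64, SE 0.34, adjusted p = 1.1e-07). CT-BMY (BAM3), the β-amylase of night-time leaf starch, had 139.7, 113.2 and 176.3 FPKM in WT dehydrated and 197, 162.1 and 173.9 FPKM in WT control, overlapping (-0.17, SE 0.20, adjusted p = 0.52). The isoforms of this one enzyme class thus had unlike changes.

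Starch synthesis genes had 5 of 17 higher and none lower; their median of 0.12 was negative when libraries were scaled by totals alone. Its largest change was the glucose-phosphate translocator GPT2, higher by 4.33 (SE 0.69, adjusted p = 0.00037). Among trehalose-phosphate enzymes 9 of 18 were called higher and 2 lower, and the phosphatases TPPG and TPPJ rose by 3.21 and 3.65 on the log2 scale. Sugar transporters had 13 of 29 higher and 8 lower. MSS1 (STP13), a hexose importer, had 144.7, 221.9 and 231.1 FPKM in WT dehydrated, against 14.46, 11.76 and 11.18 FPKM in WT control (4.14, SE 0.27, adjusted p = 5.9e-07), and the phloem loader SUC2 rose by 1.28.

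Nitrogen compounds followed no single direction. Proline and polyamine genes had 9 of 23 called higher and 4 lower (median 0.32). ADC2, an arginine decarboxylase of polyamine synthesis with fractional counts, had 904, 745.7 and 1303 FPKM in WT dehydrated, against 180.7, 183.9 and 174.7 FPKM in WT control (2.59, SE 0.35, adjusted p = 0.00013). SPDS3, a spermidine synthase family member, rose by 3.26 on the log2 scale. Of the proline genes, ERD5, which degrades proline, had 11.79, 10 and 12.11 FPKM in WT dehydrated, against 239.5, 312.9 and 290.6 FPKM in WT control (-4.49, SE 0.75, adjusted p = 0.00051). P5CS1, of proline synthesis, moved the other way and was called higher under all 21 alternatives, with log2 changes of 5.46 to 5.75. In the GABA list 2 of 5 were higher and 1 lower, and GAD4, a glutamate decarboxylase with fractional counts, rose by 6.24. Branched-chain amino acid and lysine breakdown had 3 of 16 higher and 5 lower.

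Lipid lists differed among themselves. Peroxisomal fatty acid breakdown had 7 of 20 called higher and 2 lower. Its most significant member ACX1, an acyl-CoA oxidase also used to make jasmonate, has fractional counts and had 345.8, 348.2 and 483.9 FPKM in WT dehydrated against 45.7, 48.66 and 42.72 FPKM in WT control (3.26, SE 0.31, adjusted p = 9e-06). Triacylglycerol and oil body genes had 5 of 13 higher and none lower, with a median of -0.04. The caleosin RD20 took most of the summed level of that list in WT dehydrated, with 1104, 1420 and 1583 FPKM in WT dehydrated against 2.38, 4.68 and 3.48 FPKM in WT control (8.78, SE 1.08, adjusted p = 5.8e-05).

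Wax synthesis had 10 of 21 called higher and 5 lower, with WSD1, a wax ester synthase, higher by 3.14 and KCS1, a fatty acid elongase, by 1.75 on the log2 scale. Suberin genes had 4 of 13 higher and 2 lower; the exporter ABCG1 had 35.12, 35.67 and 42.89 FPKM in WT dehydrated, against 1.82, 2.2 and 1.68 FPKM in WT control (4.46, SE 0.40, adjusted p = 5.7e-06).

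Tau and phi glutathione S-transferases, which couple glutathione to reactive compounds, had 27 of 34 called higher and 1 lower, with a median of 1.92. GSTF7, which has fractional counts, had 636.7, 563.1 and 651.2 FPKM in WT dehydrated, against 40.66, 37.24 and 44.4 FPKM in WT control (4.07, SE 0.21, adjusted p = 2.5e-07). GSTF10 had 635.5, 668.5 and 748.5 FPKM in WT dehydrated, against 222.2, 221.1 and 222.9 FPKM in WT control (1.77, SE 0.12, adjusted p = 1e-06). The summed level of the family was 7143 FPKM in WT dehydrated and 2297 FPKM in WT control.

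UDP-glycosyltransferases, which attach sugars to hormones and phenolics, had 26 of 49 called higher and 4 lower (median 1.02), with UGT87A2 higher by 2.73 and UGT84A3 by 2.23. Cytochrome P450s were less one-sided at 49 of 138 higher and 24 lower (median 0.20). CYP81D8 had 101.3, 106 and 135.1 FPKM in WT dehydrated, against 3.25, 5.03 and 3.45 FPKM in WT control (5.01, SE 0.36, adjusted p = 1.1e-06). Phenylpropanoid and monolignol genes, which lead to lignin, had 17 of 24 higher and 2 lower (median 0.90). CAD5, an alcohol dehydrogenase of lignin synthesis, had 248.9, 247.9 and 302.9 FPKM in WT dehydrated, against 31.47, 33.48 and 27.16 FPKM in WT control (3.25, SE 0.30, adjusted p = 7.4e-06).

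Redox genes rose in part. Class III peroxidases had 6 of 12 called higher and 1 lower, and PER4 had 16.96, 13.94 and 26.02 FPKM in WT dehydrated against 1.03, 0.26 and 0.13 FPKM in WT control (5.41, SE 0.52). Genes that make or scavenge reactive oxygen had 16 of 41 higher and 3 lower. The mitochondrial alternative oxidase AOX1A had 108.1, 105.8 and 124.8 FPKM in WT dehydrated, against 20.1, 21.42 and 17.03 FPKM in WT control (2.68, SE 0.17, adjusted p = 5.5e-07). CAT3, a catalase with fractional counts, moved the other way at 630.7, 619.9 and 644.3 FPKM in WT dehydrated and 1168, 1326 and 1190 FPKM in WT control (-0.81, SE 0.18, adjusted p = 0.0033).

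Nutrient lists differed among themselves. Sulfate uptake and assimilation had 12 of 29 called higher and 4 lower, with the ATP sulfurylase APS1, which has fractional counts, higher by 1.53 and the transporter SULTR3;5 lower by 2.22 on the log2 scale. Iron genes had 6 of 28 higher and 6 lower, 21.4% each, near the 24.9% and 20.6% over all genes. The iron reductases FRO6 and FRO7, which have fractional counts, fell by 1.84 and 1.29, and the phloem transporter gene YSL3 by 1.19. The ferritin FER1 was called higher, with log2 changes of 0.76 to 1.58 over all fits, a call lost under 4 of 21 alternatives. Phosphate starvation genes had 7 of 25 higher and 3 lower. In that list RNS1, a secreted ribonuclease also induced by wounding, had 49.53, 49.03 and 67.21 FPKM in WT dehydrated, against 0.73, 1.45 and 1.36 FPKM in WT control (5.68, SE 0.58, adjusted p = 1.6e-05).

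Chlorophyll synthesis had 1 of 25 called higher and 6 lower (24.0%, near the 20.6% over all genes), or 12 lower when libraries were scaled by totals alone. HEMC and HEME2, both early enzymes, each fell by 0.59 on the log2 scale. Chlorophyll breakdown had 5 of 12 called higher and none lower (median 0.59). NYE1 (SGR1), which starts chlorophyll degradation, had 54.07, 45.21 and 45.12 FPKM in WT dehydrated, against 10.48, 10.88 and 8.22 FPKM in WT control (2.43, SE 0.31, adjusted p = 7.9e-05). Carotenoid and tocopherol genes had 10 of 23 higher and 1 lower, with TAT7, which feeds tocopherol synthesis, higher by 2.16.

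Carbon fixation changed little by count. Calvin cycle and Rubisco genes had none of 20 called higher and 2 lower (median -0.25), both Rubisco small subunits with fractional counts; the call of RBCS2B was lost under 9 of 21 alternatives. RBCS1B had 1084, 770.7 and 1167 FPKM in WT dehydrated, against 3208, 2964 and 3096 FPKM in WT control (-1.46, SE 0.41, adjusted p = 0.012). RBCS1A, the most abundant subunit, which has fractional counts, had 8875, 6967 and 8501 FPKM in WT dehydrated and 11650, 9849 and 10550 FPKM in WT control; the groups overlapped after TMM scaling and the gene was not called (-0.25, SE 0.22, adjusted p = 0.39). Photorespiration genes had 1 of 15 higher and 3 lower.

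**Figure D5:**
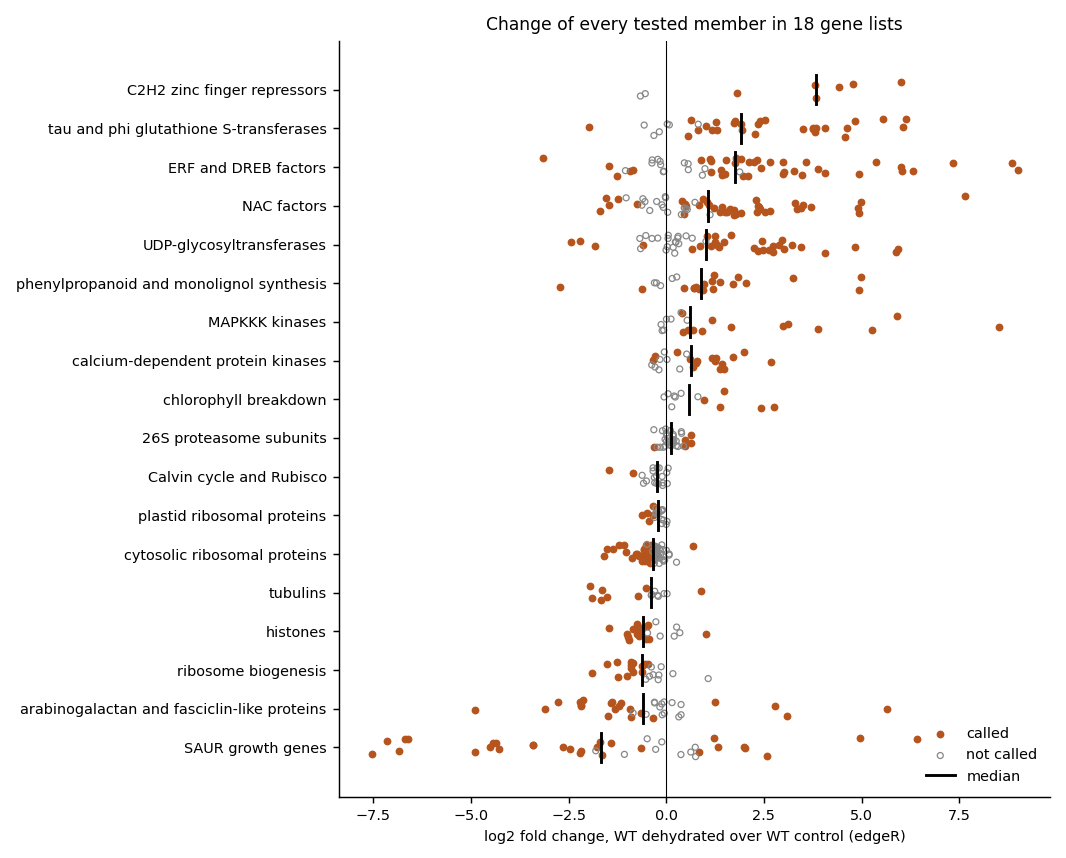
log2 fold change (WT dehydrated over WT control) of every tested member of 18 lists, with called genes filled, others open and the list median as a black line. The zinc finger and glutathione S-transferase medians lie at 3.83 and 1.92, the ribosomal protein and histone members sit close together just below 0, and SAUR members run from -7.55 to 6.41.

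Wall and cytoskeleton lists were called lower more often than higher, with the exception of the cellulose synthases. Arabinogalactan and fasciclin-like proteins of the wall had 4 of 34 called higher and 17 lower, 13 of them at least 2-fold (median -0.59). FLA9 had 7.14, 3.55 and 2.82 FPKM in WT dehydrated, against 156.1, 154.8 and 135.2 FPKM in WT control (-4.90, SE 0.65, adjusted p = 0.00011). AGP21 had 16.56, 14.33 and 17.9 FPKM in WT dehydrated, against 128.2, 117.6 and 124.2 FPKM in WT control (-2.77, SE 0.23, adjusted p = 3.6e-06). Some members of this family rose steeply: AGP2 had 194.4, 246.2 and 273.5 FPKM in WT dehydrated, against 4.55, 7.08 and 4.08 FPKM in WT control (5.65, SE 0.52, adjusted p = 7.5e-06), and AGP1 rose by 3.10.

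Pectin methylesterases and their inhibitors had 1 of 13 called higher and 4 lower, with PME3 at 41.5, 27.51 and 45.98 FPKM in WT dehydrated against 122.6, 129.9 and 125.5 FPKM in WT control (-1.57, SE 0.27, adjusted p = 0.00057). BXL1, a wall xylosidase outside the lists, fell by 4.61. Cellulose synthases had 1 of 9 higher and none lower, and that call (CESA1, 0.34) was lost under 6 of 21 alternatives. Tubulins had 1 of 15 higher and 7 lower (median -0.39). TUA3 and TUA5, neighbouring genes with fractional counts, fell by 1.68 and 1.89, while TUA1 rose by 0.90.

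Histones had 1 of 22 called higher and 15 lower (median -0.59), and cyclins and mitotic kinesins 2 of 39 higher and 14 lower (median -0.49). HTA11, a histone variant of the H2A.Z class, had 20.69, 16.48 and 17.12 FPKM in WT dehydrated, against 33.39, 44.2 and 41.33 FPKM in WT control (-0.98, SE 0.17, adjusted p = 0.00081). CYCA3;2 and CDKB2;1 fell by 0.78 and 0.66 on the log2 scale. At least 2-fold falls were called in 2 histone and 3 cyclin or kinesin genes, and 23 of the cyclins and kinesins were not called.

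Genes of ribosome biogenesis and of cytosolic ribosomal proteins fell together. Ribosome biogenesis had 14 of 23 called lower and none higher (median -0.61), and cytosolic ribosomal proteins 38 of 67 lower and 1 higher (median -0.35). With scaling by totals alone the counts were 16 and 51 lower. NOP56 had 30.09, 26.38 and 29.03 FPKM in WT dehydrated, against 69.72, 83.6 and 74.77 FPKM in WT control (-1.27, SE 0.12, adjusted p = 9.5e-06). FIB2, the fibrillarin that methylates ribosomal RNA and has fractional counts, had 9.33, 7.62 and 11.46 FPKM in WT dehydrated, against 34.32, 43.03 and 41.16 FPKM in WT control (-1.91, SE 0.20, adjusted p = 2e-05). AT2G37600, one of the ribosomal protein genes with a promoter printed above, had 26.61, 36.65 and 23.02 FPKM in WT dehydrated, against 64.91, 83.93 and 82.95 FPKM in WT control (-1.21, SE 0.18, adjusted p = 0.00024). The most abundant ribosomal protein genes moved less, with emb2386, which has fractional counts, at -0.18 (adjusted p = 0.20) and AT5G20290 at -0.22 (adjusted p = 0.13), both not called. Plastid ribosomal proteins had 5 of 20 lower, a share near the 20.6% over all genes, and none higher. No fall of at least 2-fold was called among them. Their count called lower was 12 when scaled by totals alone and ran from 0 to 12 over the 21 alternatives.

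Protein turnover was more selective. The 26S proteasome subunits had 4 of 38 called higher and 1 lower with TMM, and 2 higher and 3 lower when scaled by totals alone. The list of vacuolar and stress-induced proteases, which also holds ribonucleases and protease inhibitors, had 16 of 26 higher and 3 lower (median 0.47). RD21A, a vacuolar cysteine protease, had 458.9, 508.4 and 440.8 FPKM in WT dehydrated, against 208.4, 218 and 200.9 FPKM in WT control (1.31, SE 0.15, adjusted p = 4.2e-05), and the metacaspase MC1 rose by 1.47. HSP70, HSP90 and HSP100 chaperones had 8 of 22 higher and 3 lower, or 5 and 6 when scaled by totals alone; the plastid Clp chaperone ERD1 rose by 2.23 and the organelle HSP90 Hsp89.1 fell by 1.00. Small heat shock proteins had 3 of 5 higher and none lower, the 3 risers at low level. HSP17.6II had 3.55, 5.12 and 4.52 FPKM in WT dehydrated and 0.19, 0.19 and 0.39 FPKM in WT control (4.14, SE 0.49). Its control level left hardly any room for a call lower. The summed level of the list went the other way, at 66.03 FPKM in WT dehydrated and 81.53 FPKM in WT control. Most of it came from ACD32.1, with means of 50.95 and 76.96 FPKM, which was not called (-0.45, SE 0.33, adjusted p = 0.29). With a filter of 10 CPM in 3 libraries, the list median was -0.47 in place of 1.64. The calls of HSP17.4 and HSP17.6A were each lost under 6 of the 19 alternatives in which they were tested.

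The 10 largest gains in CPM included genes of defence, jasmonate synthesis and protein turnover. The transporter PEN3, which exports defence compounds and has fractional counts, had 529.1, 483.4 and 591.7 FPKM in WT dehydrated, against 156.9, 152.7 and 152.6 FPKM in WT control (1.94, SE 0.19, adjusted p = 1.1e-05). LOX2, the plastid lipoxygenase of jasmonate synthesis, had 620.1, 768 and 1552 FPKM in WT dehydrated, against 109.8, 111.2 and 113.3 FPKM in WT control (3.29, SE 0.65, adjusted p = 0.0016); dehydrated library 3 stood well above the others. UBQ10, a polyubiquitin gene often used as a reference transcript, has fractional counts and had 2261, 2729 and 2455 FPKM in WT dehydrated, against 1050, 1034 and 1025 FPKM in WT control (1.42, SE 0.14, adjusted p = 1.3e-05).

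Among the 10 largest falls of well counted genes, several had been abundant in WT control. DIN10, a dark-inducible raffinose synthase family gene, had 19.35, 16.95 and 12.09 FPKM in WT dehydrated, against 460.9, 527.4 and 484.8 FPKM in WT control (-4.79, SE 0.81, adjusted p = 0.00059). AT5G22920, a RING-type zinc finger gene, had 4.96, 9.12 and 3.02 FPKM in WT dehydrated, against 207, 241 and 213.5 FPKM in WT control (-5.15, SE 0.87, adjusted p = 0.00057). AT2G45180, of the lipid transfer protein superfamily, had 91.97, 38.73 and 25.38 FPKM in WT dehydrated, against 1575, 1587 and 1466 FPKM in WT control (-4.75, SE 0.93, adjusted p = 0.0015). In each of these the 3 control libraries lay close together and the dehydrated ones spread more widely.

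The response to drying was also fitted in cost1, and the difference between genotypes was called for none of the 386 named genes and none of all genes tested by edgeR's quasi-likelihood test, with 690 genes at an unadjusted p under 0.05. That does not show that the genotypes respond alike.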

How the data were processed

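Expected counts and FPKM per gene were deposited by the authors for each library; per the submitters' processing notes the tools were STAR 2.4.0, HTSeq 0.6.0 and DESeq2 with the build TAIR10, in no stated role. The counting program of the tables, its treatment of shared reads and its use of strand are not given in the sources used here. A gene missing from a library's table was taken as 0. After rounding, edgeR 4.0.16 (R 4.3.3) was run on the deposited expected counts: TMM scaling, filterByExpr, 1 quasi-likelihood fit of group means over all 12 libraries (8 residual degrees of freedom), contrast WT dehydrated minus WT control, Benjamini-Hochberg adjustment over 18809 genes, threshold 0.05. The SE is the log2 change divided by the root of F. On simulated counts of 18809 genes with 197 tested genes changed 4-fold, 91.4% were recovered and 3.23% of calls were false. The simulation changed few genes, in equal numbers up and down, so these rates do not cover the broad shift in the data.

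Depth was 5968852 to 6198222 counts per WT library, which limits genes of few counts; counting intervals cover counting error only. No 2 libraries of a group agreed within sampling noise.

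The members and lists were chosen with earlier results of these data known. Named genes were, per list, up to 4 called members with the smallest p and up to 2 with the highest FPKM, plus the 10 largest gains, losses, rises and falls; list counts are over tested members, and a member that passed the filter only where it is high had to differ. Loci were matched to RefSeq's TAIR10.1 annotation by locus tag (23831 of 24035), from which promoters and exon numbers were read; no coordinates of the deposited tables were used. limma 3.58.1 on log2 FPKM and DESeq2 1.42.0 were among the alternatives.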

Additional observations from a re-analysis of the deposited data

How the results depend on the processing

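Against 21 alternatives, the count of called genes ran from 6766 to 9266, around 8549, and no named gene reversed. Leaving out 1 library at a time gave 6766 to 9107 calls, the lowest without WT control replicate 2. Scaling by totals alone gave 3969 higher and 5297 lower, limma on log2(FPKM + 0.1) 3928 and 5265, limma on log2(FPKM + 1) 3893 and 5361, DESeq2's Wald test 4700 and 3793, and a fit of the 6 WT libraries 4867 and 4256. Of the genes called under totals alone, 7838 were also called in the same direction with TMM. A test against a 2-fold threshold (glmTreat) kept 2280 genes, 1788 higher and 492 lower, in place of 4463. With the replicate number as a block, 8555 genes were called, 4692 higher and 3863 lower. The deviations of same-numbered WT dehydrated and WT control libraries from their group means were correlated at r = 0.043, 0.01 and 0.025. No label says whether equal numbers mark libraries handled together, and these values cannot decide it. Of 330 named genes that were called, 289 kept the call under every alternative in which they were tested. Some of them were tested in only 19 or 20 of the 21. Over 8070 refits of named genes, 197 lost a call and 54 gained one. The medians of 50 of 69 lists kept their sign under all 21. Counts of several lists moved widely: SAUR genes called lower ran from 6 to 28, R2R3-MYB factors called higher from 15 to 34, plastid ribosomal proteins called lower ran from 0 to 12, cytosolic ones from 25 to 53, and seed and small heat shock members from 0 to 2 and 0 to 3 called higher. With called genes of any size, ACGTGT or ACGTGG was in 30.4% of promoters of higher and 14.1% of lower genes, and site II in 28.6% of lower ones. The fit on unrounded counts was not run.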
